A study of Glycine max with 4 samples.

Results

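The regions described here are the sites at the outermost ends of 19 soybean chromosomes that were called as bound in both ChIP libraries against the protein encoded by GLYMA.06G314400. They were placed by position alone. Peaks of the replicate 1 and replicate 2 lists that overlapped by 1 bp or more were joined, and joined regions that drew on both lists are called shared regions. A shared region is a member where the replicate 2 summit, the point of highest signal, lies in the first 5% or the last 5% of the chromosome span. There were 6979 members among 33504 shared regions on these chromosomes (20.8%) and 36297 on all sequences. The first 5% held 3551 members and the last 5% held 3428. Chromosome 13 was left out by the rule. The span runs from position 0 to the end of the last peak of either list, since chromosome lengths were not used here, so the end zones are those of the peak lists. Each end zone is 1.73 to 2.90 Mb wide, and the 38 zones together cover 90.2 Mb. The next 15% inward on each side, from 5 to 20% of the span, is called the inward zone and held 16892 shared regions.

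The study mapped the protein by chromatin immunoprecipitation and sequencing in early maturation embryos of soybean, Glycine max, cultivar Williams 82. The series has 2 ChIP libraries and 2 input libraries, numbered as replicates 1 and 2, all from embryos of seeds of 6 to 7 mm that were fixed with 1% formaldehyde and had no other labelled treatment. The sample titles mark the replicates as br1 and br2, and whether they come from separate plants is not stated in the labels. The ChIP libraries were made with 3 µg of an antibody raised against a peptide that covers amino acids 224 to 238 of the protein, and the input libraries without one. Each ChIP library has its own peak list, the input libraries enter only as the background inside those lists, and no library is labelled as made with a control antibody, so signal that recurs with this antibody for other reasons cannot be told apart from binding.

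As background, the peak names carry the word AREB3, a name used in Arabidopsis for a basic leucine zipper (bZIP) factor of the group that binds abscisic-acid-responsive elements. Factors of this group act in seeds during maturation, when the embryo stores protein and oil and prepares for drying. Soybean chromosomes have arms rich in genes and large repeat-rich middles around the centromere. Genes were not assigned to the sites, because no gene annotation on the build of the peak lists was used here, and gene density along the chromosomes was not compared.

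Replicate 2 is read here as the deeper library, from values at the summits and not from read counts. The lowest background at a summit, read here as the mean fragment depth that the peak caller uses as its floor, was 3.00 fragments in replicate 1 and 6.36 in replicate 2. In the end zones replicate 1 had 7671 peaks covering 3.24% of the sequence, and replicate 2 had 9209 peaks covering 3.83%. The p-values below treat chromosomes as units. All chromosomes were read from the same 2 ChIP libraries, so these tests speak of positions within these libraries and not of new embryos.

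Shared regions were denser in the end zones than in the inward zones on 18 of 19 chromosomes. The density was 77.6 ± 9.60 per Mb in the end zones, against 63.1 ± 9.21 per Mb in the inward zones (mean ± SD over 19 chromosomes). The lowest density of a chromosome's end zones was 60.9 per Mb on chromosome 15, the median 76.02 and the highest 93.7 on chromosome 17. In the inward zones the lowest was 47.3 per Mb on chromosome 20, the median 64.2 and the highest 79.2 on chromosome 11. The ranges of the zones thus overlap across chromosomes. Within a chromosome the difference ran from -2.75 per Mb on chromosome 12 to 33.5 per Mb on chromosome 1. The median difference within a chromosome was 13.9 per Mb (98.1% interval from the ranked differences 7.08 to 19.4), with a two-sided exact sign test p of 7.63e-05 and an adjusted p of 0.000916 over 12 tests (Benjamini-Hochberg). The ratio of end to inward density had a median of 1.23. It was widest on chromosome 1, with 83.6 per Mb in the end zones against 50.1 in the inward zones, and on chromosome 18, with 81.6 against 49.0. Chromosome 12 was the exception, with 72.2 per Mb in the end zones and 74.9 in the inward zones.

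Each list on its own gave the same direction on 18 of 19 chromosomes. Replicate 1 peaks reached 85.3 ± 11.3 per Mb in the end zones, against 69.0 ± 10.1 per Mb in the inward zones. Replicate 2 peaks reached 102.3 ± 12.1 per Mb in the end zones, against 82.5 ± 11.6 per Mb in the inward zones (SD over 19 chromosomes in each case). Chromosome 12 was the exception in both lists.

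**Figure D1:**
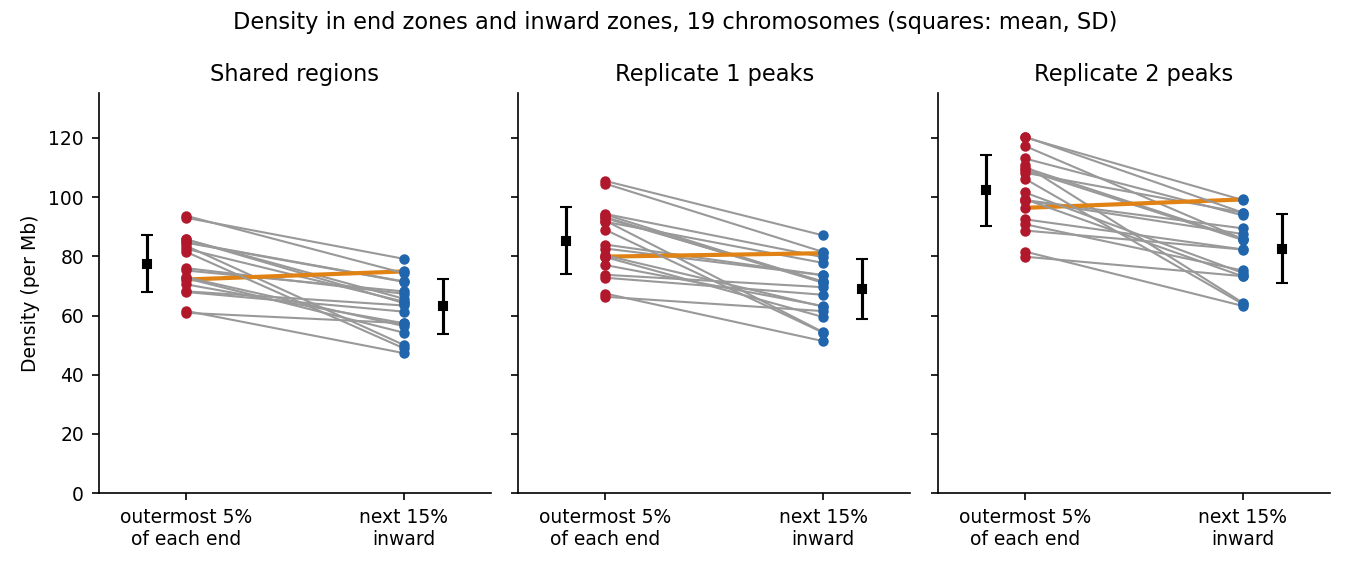
Density per Mb of shared regions, replicate 1 peaks and replicate 2 peaks in the outermost 5% of both ends (left in each panel) and in the next 15% inward (right), with 1 line per chromosome and squares for the mean with its SD over 19 chromosomes. All lines but the thick one of chromosome 12 run downward to the inward zone, and the means for shared regions are 77.6 and 63.1 per Mb.

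The difference was not seen right beside the end zones. They had 77.6 ± 9.60 shared regions per Mb, against 75.8 ± 14.02 per Mb when the inward zone was narrowed to the next 5% (5 to 10% from each end). The end zones were then denser on 9 chromosomes, less dense on 9 and equal on 1 (median difference 0 per Mb, exact sign test p = 1). With the stretch from 10 to 20% as the inward zone, an alternative chosen after seeing the data, the end zones were denser on 19 of 19 chromosomes, against an inward density of 56.7 ± 9.52 per Mb. In steps of 1% of the span, averaged over both sides, density stayed between 80.3 and 81.7 per Mb from 1 to 6%, was 70.9 per Mb in the step from 9 to 10% and was 45.8 per Mb in the step from 19 to 20%.

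Within the end zones, the outermost 1% held fewer sites than the rest. This pattern was noticed in the profile and is given as counts, with no test. The outermost 1% had 64.0 ± 10.7 shared regions per Mb, against 80.9 ± 11.0 per Mb between 1 and 5% (SD, n = 19 chromosomes). It was the less dense stretch on 18 of 19 chromosomes among shared regions and on 19 of 19 in each list. On the first side the outermost 1% had 61.5 per Mb against 82.8 in the stretch from 1 to 5%, and was lower on 17 of 19 chromosomes. On the last side the values were 66.5 and 79.1 per Mb, with 14 of 19 chromosomes lower in the outermost 1%. With the span counted from the first peak of either list, which drops the empty tip before it, the outermost 1% had 67.5 per Mb over both sides, against 80.8 per Mb between 1 and 5%, and 17 of 19 chromosomes were lower. On the first side alone that span gave 68.4 per Mb against 82.6, with 15 of 19 chromosomes lower in the outermost 1%, and the median difference there was -7.70 per Mb, beside -22.5 per Mb with the span counted from 0. In replicate 1, median fold enrichment was 6.99 among the 1151 members of the outermost 1% and 7.11 among the 5828 members between 1 and 5%. In replicate 2 these medians were 6.31 and 6.28. Fold enrichment is the authors' value at the summit, a linear ratio of ChIP signal to local background.

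**Figure D2:**
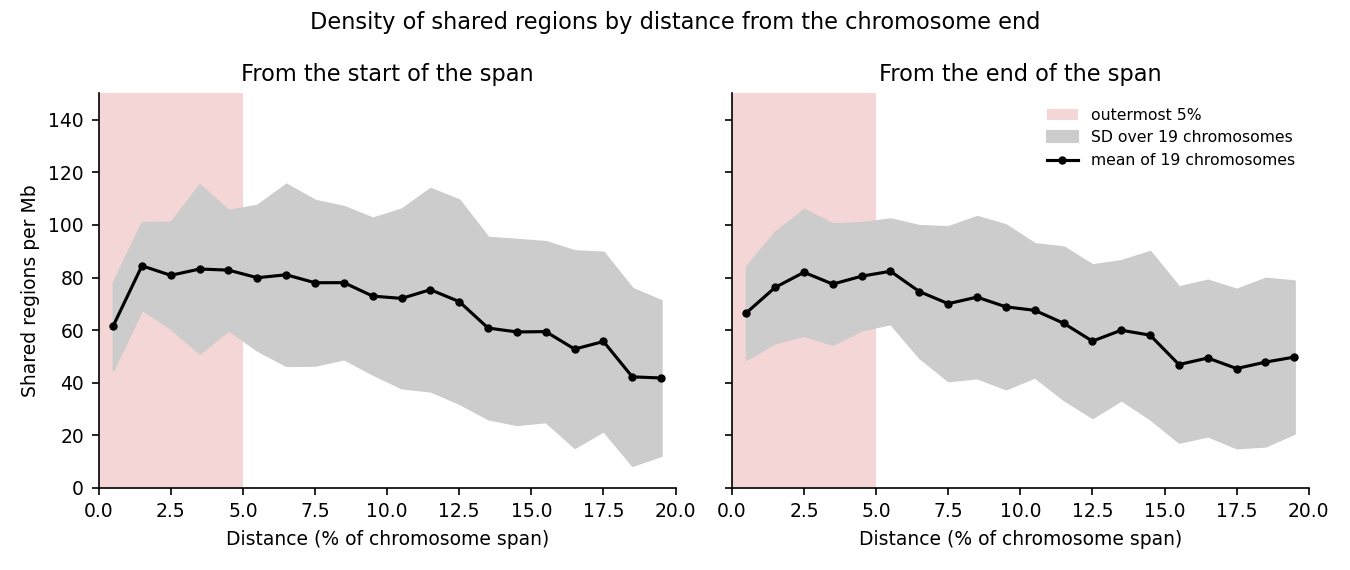
Density of shared regions in steps of 1% of the chromosome span, from the start of the span (left) and from its end (right), with the mean of 19 chromosomes as points and the SD as the grey band. The shaded stretch is the outermost 5%. Density is lowest there in the first step, at 61.5 and 66.5 per Mb, and falls slowly beyond the shaded stretch.

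The outermost member lay close to the tip of the span on most chromosomes. On the first side its summit was 8.67 to 202 kb from position 0, with a median of 31.6 kb. The nearest was on chromosome 6 from 8503 to 8773, enriched 4.62-fold by replicate 1 and 3.30-fold by replicate 2. The farthest first member was that of chromosome 1. On the last side the distances to the end of the span, 0.125 to 43.7 kb with a median of 0.292 kb, are short by construction, because the span ends with a peak. The member nearest that end lay on chromosome 11 from 34607495 to 34607785, enriched 3.76-fold by replicate 1 and 3.53-fold by replicate 2. Both are weak sites: counted from the strongest peak of a list, the worse of their ranks stood at 90.9% and 90.0% of the list.

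Single ends differed widely in their number of members. The 38 ends held 107 to 269 members each, with a median of 188. The fullest ends were the first 5% of chromosome 18 with 269 members, the last 5% of chromosome 1 with 255 and the first 5% of chromosome 10 with 248. The emptiest were the last 5% of chromosome 15 with 107, the first 5% of chromosome 3 with 108 and the first 5% of chromosome 20 with 119. Zone width also enters these counts, and is 2.90 Mb per end on chromosome 18 and 1.73 Mb on chromosome 11. It does not account for the emptiest end, since each end zone of chromosome 15 is 2.59 Mb wide, above the median of 2.43 Mb. Per Mb, the ends ranged from 41.4 (last 5% of chromosome 15) to 96.5 (first 5% of chromosome 11) with a median of 77.3. Their own inward zones ranged more widely, from 14.2 to 108.6 per Mb with a median of 63.7. The SD over 38 was 14.9 per Mb for ends and 24.96 per Mb for inward zones. In every one of the 38 ends, replicate 2 had more peaks than replicate 1, with a median of 249 against 207.5.

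Set against its own inward zone, an end was the denser stretch in 26 of 38 cases and the less dense one in 12. Both ends were denser on 7 chromosomes and exactly 1 end on 12, and no chromosome had 2 ends that were both sparser. The first 5% of chromosome 20 had 49.7 members per Mb, against 14.2 per Mb in the adjoining inward zone, a ratio of 3.50. The first 5% of chromosome 19 had 54.4 per Mb against 21.3, and the last 5% of chromosome 17 had 95.7 per Mb against 42.1. In the other direction, the last 5% of chromosome 9 had 61.0 per Mb against 78.8 in its inward zone, a ratio of 0.774. The first 5% of chromosome 12 had 65.9 per Mb against 81.2, and the first 5% of chromosome 17 had 91.8 per Mb against 106.6. Chromosome 17 thus had nearly equal ends beside a dense inward zone on the first side and a sparse one on the last side.

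**Figure D3:**
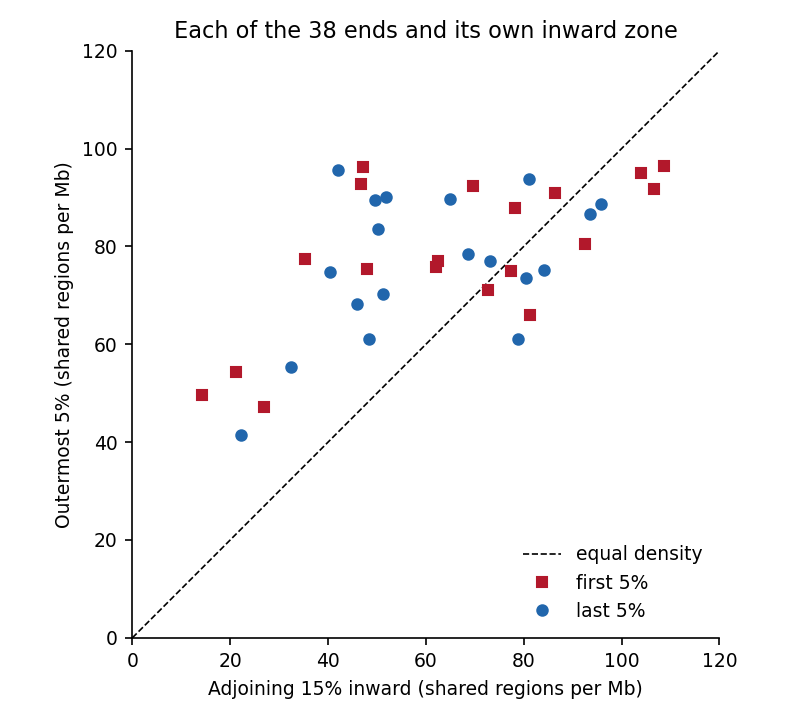
Density of shared regions in each of the 38 end zones (vertical axis, per Mb) against the density of the adjoining 15% inward (horizontal axis, per Mb), with squares for the first 5%, circles for the last 5% and a dashed line of equal density. 26 points lie above the line, and the ends stay at 41.4 per Mb or more even where the inward zone has 14.2.

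The 2 ends of a chromosome were then compared. No difference in density between the sides was detected over the 19 chromosomes. First and last name only the order of positions, so this test does not ask whether the ends of a single chromosome differ. The first 5% had 78.6 ± 15.6 members per Mb and the last 5% had 76.5 ± 14.5 per Mb (mean ± SD, 19 chromosomes). The first side held more members on 10 chromosomes and the last side on 9, with a median difference of 4.20 per Mb (98.1% interval -15.3 to 20.95, exact sign test p = 1, adjusted p = 1). The first side includes the empty tip before the first peak, while the last side ends with a peak. With the span counted from the first peak, the sides had 79.7 and 76.5 per Mb, with a median difference of 5.35 per Mb. On single chromosomes the ends could be far apart. The fuller end held 1.04 to 1.94 times as many members as the other, with a median of 1.24 times.

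Chromosome 15 had the largest ratio toward the first side, with 208 members in the first 5% against 107 in the last 5%. Replicate 1 alone had 230 peaks against 113 there, and replicate 2 had 270 against 143. Chromosome 6 followed with 244 against 142 members, and chromosome 8 with 217 against 146. Toward the last side, chromosome 3 had 108 members in the first 5% against 203 in the last 5%, chromosome 19 had 138 against 220 and chromosome 20 had 119 against 176. In chromosome 3, replicate 1 had 119 peaks against 214 and replicate 2 had 142 against 264.

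Both lists went the same way as the shared regions on 18 of 19 chromosomes, and on chromosome 11 replicate 1 had 189 peaks in the first 5% against 176 in the last 5% while replicate 2 had 207 against 209. The log2 ratio of the ends differed between the lists by a median of 0.063 and at most 0.15. For comparison, the absolute log2 ratio of the ends in shared regions had a median of 0.30. The exact (Clopper-Pearson) 95% interval of the share of members at the first side left out 50% on 8 chromosomes, 5 with more members in the first 5% and 3 with more in the last 5%. On chromosome 15 the share was 66.0% (60.5 to 71.2) and on chromosome 3 it was 34.7% (29.4 to 40.3). These intervals cover counting error only, and neighbouring sites are not independent. The end with more members adjoined the denser of the 2 inward zones on 11 of 19 chromosomes and the sparser on 8.

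**Figure D4:**
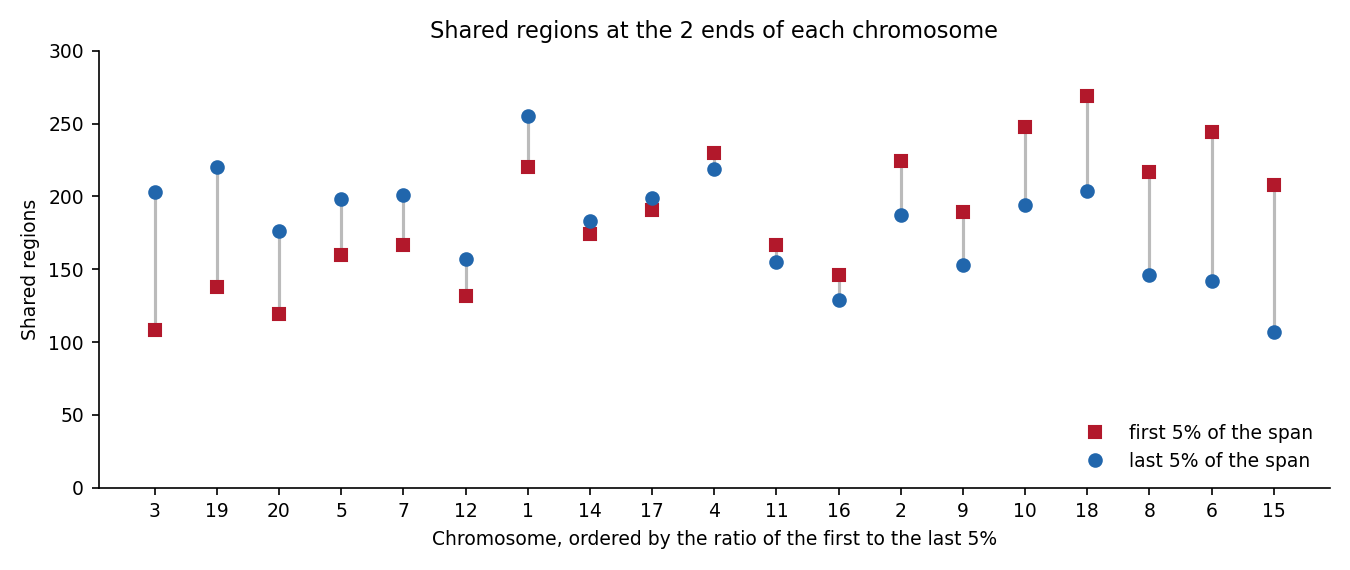
Number of shared regions in the first 5% (squares) and the last 5% (circles) of each chromosome, in order of their ratio. Chromosome 3 stands at the left with 108 and 203, chromosome 15 at the right with 208 and 107, and 10 chromosomes have the square above the circle.

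Members were not detectably stronger or weaker than shared regions of the inward zones. The median fold enrichment of a chromosome's members was 7.10 ± 0.273 in replicate 1, against 7.12 ± 0.182 in the inward zones. In replicate 2 it was 6.33 ± 0.262 among members and 6.31 ± 0.160 in the inward zones (mean ± SD of 19 medians). The median log2 difference was -0.0048 in replicate 1 (98.1% interval -0.042 to 0.024, higher in the end zones on 9 of 19 chromosomes, exact sign test p = 1) and -0.020 in replicate 2 (-0.036 to 0.052, 7 of 19, p = 0.359), with an adjusted p of 1 in both. In replicate 2 the mean log2 difference, 0.0033, had the opposite sign to the median. Over single members, fold enrichment ran from 2.45 to 55.9 in replicate 1 (interquartile range 5.11 to 11.1) and from 1.67 to 38.4 in replicate 2 (4.49 to 9.54). Single ends varied more than these averages, with medians of 6.24 to 8.15 in replicate 1 and 5.67 to 7.42 in replicate 2. Both lists placed the same ends at these extremes, the last 5% of chromosome 10 at the lowest and the first 5% of chromosome 18, which also held the most members, at the highest.

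**Figure D5:**
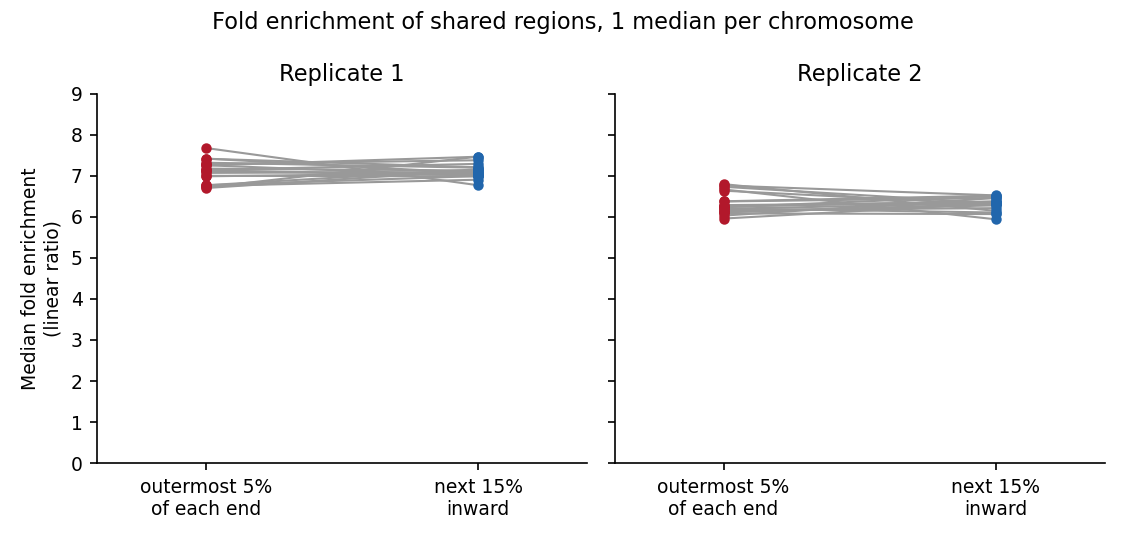
Median fold enrichment (linear ratio, axis from 0) of the shared regions of each chromosome in the outermost 5% of both ends (left) and the next 15% inward (right), in replicate 1 and replicate 2, with 1 line per chromosome. Lines run both ways, and the means are 7.10 and 7.12 in replicate 1 and 6.33 and 6.31 in replicate 2.

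Strong sites made up a similar share of both zones, with no difference detected. Of the members, 1432 (20.5%, exact 95% interval 19.6 to 21.5) had at least 10-fold enrichment in both lists, against 3515 shared regions of the inward zones (20.8%, 20.2 to 21.4) and 20.8% of all shared regions on the 19 chromosomes. The exact intervals cover counting error only, and neighbouring sites of the same libraries are not independent. The median difference within a chromosome was -0.055 percentage points (98.1% interval -2.16 to 1.85, exact sign test p = 0.648, adjusted p = 1). Among the best 1000 shared regions of the 19 chromosomes by rank there were 184 members, and among the best 100 there were 18, while members made up 20.8% of all 33504 shared regions.

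Peak width and input background also lay close between the zones. The median peak width of a chromosome's members was 358 ± 9.96 bp in replicate 1, against 358 ± 8.18 bp in the inward zones, and 373 ± 8.98 bp against 376 ± 7.56 bp in replicate 2. The log2 differences had a median of 0.0041 (98.1% interval -0.038 to 0.041) and -0.012 (-0.049 to 0.015), with exact sign test p of 0.815 and 1. The background at the summit, recovered from fold enrichment and p, had a median of 3.79 ± 0.0663 fragments at members and 3.79 ± 0.0636 in the inward zones in replicate 1. In replicate 2 it was 8.62 ± 0.177 fragments at members and 8.65 ± 0.143 in the inward zones. The median log2 difference was 0 in both lists (98.1% intervals -0.030 to 0.039 and -0.036 to 0.032, exact sign test p = 1 in both). Adjusted p was 1 for each of these 4 tests. No member had a background over 20 fragments in replicate 1, and 5 had one in replicate 2. In the inward zones no shared region had one in replicate 1, and 17 of 16892 had one in replicate 2. Background is known here only at summits, so input depth between the sites was not compared.

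Peaks at the ends overlapped the other list at shares close to those further inward, with no difference detected. Of the replicate 1 peaks in the end zones, 7048 overlapped a replicate 2 peak (91.9%, exact 95% interval 91.2 to 92.5), against 17040 in the inward zones (92.1%, 91.7 to 92.5) and 91.9% on the 19 chromosomes as a whole. Of the replicate 2 peaks in the end zones, 7038 overlapped a replicate 1 peak (76.4%, 75.5 to 77.3), against 17006 in the inward zones (76.9%, 76.3 to 77.5) and 76.6% as a whole. Here too the exact intervals cover counting error only, since peaks of the same library are not replicates. The median differences within a chromosome were -0.612 percentage points (98.1% interval -1.14 to 1.29) and -0.157 (-2.18 to 1.08), with exact sign test p of 0.359 and 0.648 and adjusted p of 1. End zone peaks without a counterpart were the weaker ones. The 623 in replicate 1 had a median fold enrichment of 4.37, against 7.07 for those with a counterpart, and the 2171 in replicate 2 had 3.58 against 6.26. The inward zones showed the same, with 4.31 against 7.09 in replicate 1 and 3.59 against 6.30 in replicate 2.

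The lists placed most members a short distance apart. In 6858 members (98.3%) each list had 1 peak, and the median distance between their summits was 22 bp, with an interquartile range of 9 to 43 bp. Fold enrichment was higher in replicate 1 in 4958 members (71.0%). The inward zones were close to this, with 98.5% of shared regions having 1 peak in each list and 70.6% higher in replicate 1. The median summit distance there was 22 bp as well. Summit pileups, the number of overlapping ChIP fragments, had a median of 34 in replicate 1 and 61 in replicate 2. Across the 6979 members, which share both libraries, the Spearman correlation was 0.92 for the pileups and 0.83 for fold enrichment. In the inward zones the median pileups were also 34 and 61, and the correlations were 0.92 and 0.83.

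Neighbouring members lay a median of 7420 bp from summit to next summit (interquartile range 2840 to 16801). The next shared summit was within 1000 bp for 7.30% of members, against 6.57% in the inward zones. Per chromosome the median distance was 7603 ± 1032 bp in the end zones, against 8122 ± 937 bp in the inward zones, and it was shorter in the end zones on 13 of 19 chromosomes. The median log2 difference of -0.12 did not pass the test (98.1% interval -0.28 to 0.065, exact sign test p = 0.167, adjusted p = 1). The largest distance from a member to the next shared summit was 204.5 kb, in the first 5% of chromosome 3. Between ends, the widest gap had a median of 92.8 kb and was narrowest, at 53.1 kb, in the last 5% of chromosome 11.

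The strongest members were spread over 6 chromosomes at 283 to 2827 kb from the end of the span. The best ranked, by the worse of its ranks in both lists, lay in the last 5% of chromosome 12 from 39597290 to 39598240. Its enrichment was 50.8-fold by replicate 1 and 38.4-fold by replicate 2, which is the highest replicate 2 value of any member, and was number 10 among the shared regions of the 19 chromosomes. The next 2 were neighbours in the last 5% of chromosome 18. Replicate 1 gave 50.8-fold and replicate 2 gave 34.1-fold at the region that spans 55165886 to 55166674. Its neighbour, which spans 55169021 to 55170014, had 55.9-fold in replicate 1, the highest of any member there, and 35.6-fold in replicate 2. Chromosome 18 also held the fourth and the fifth, both in its first 5%. The fourth spans 968864 to 970820, was enriched 52.2-fold by replicate 1 and 29.7-fold by replicate 2, and had a peak that was 665 bp wide in replicate 1 and 1895 bp in replicate 2. The fifth spans 2729776 to 2730523 and reached 33.2-fold by replicate 1 and 36.7-fold by replicate 2, the only one of the 10 best with the higher value in replicate 2. Its background was 7.16 fragments in replicate 1, the highest of the 10 in that list.

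The sixth lay in the last 5% of chromosome 3 (45481501 to 45482405), where replicate 1 gave 45.4-fold and replicate 2 gave 33.8-fold. Chromosome 4 had one at each end. That in the first 5% (778620 to 779394) was enriched 36.7-fold by replicate 1 and 33.6-fold by replicate 2, and that in the last 5% (51614080 to 51614694) was enriched 51.8-fold by replicate 1 and 28.96-fold by replicate 2. The last 5% of chromosome 2 held the ninth (47899850 to 47900899), with 45.6-fold by replicate 1 and 31.7-fold by replicate 2. The tenth lay in the first 5% of chromosome 16 (1539485 to 1540352), with 42.2-fold by replicate 1 and 32.7-fold by replicate 2. Across the 10 best, both replicates had their summits within 1 to 34 bp, and the pileup ranged from 203 to 270 fragments (replicate 1) and from 278 to 339 (replicate 2). Positions are counted from 1, on a genome build not given in the sources used here.

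At the 38 inner limits of the end zones, the shared region just inside lay a median of 6.17 kb from the limit with a median of 9.70-fold in replicate 1 (range 4.24 to 22.7) and 8.23-fold in replicate 2 (2.39 to 16.1). The region just outside lay a median of 9.05 kb away, with 6.88-fold (3.67 to 26.6) and 6.44-fold (3.15 to 22.2). This contrast rests on single regions beside limits set by the rule and was not tested. Over all regions, the median was 7.07-fold at members and 7.12-fold in the inward zones in replicate 1, and 6.28-fold and 6.31-fold in replicate 2.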

How the data were processed

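Chromatin was measured in 2 ChIP and 2 input libraries of early maturation embryos. Bowtie 0.12.7 and MACS2 (no version) are named in the submitters' processing notes. The authors deposited 1 peak list per ChIP library, called with a q threshold of 0.01 per the peak names. Each deposited peak has a score (its −log10 q multiplied by 10 and cut to a whole number), a fold enrichment ratio, a −log10 p and a −log10 q, all for the summit. Control pairing, duplicate handling and build were not given in the sources used here.

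Lists were joined, and zones set, with Python 3.11.15, pandas 2.3.3 and SciPy 1.17.1. Where a list had several peaks in a region, its widest gave the values. Pileup and background were solved from fold enrichment and p (tolerance 0.001 in −log10 p, Poisson tail, 1 fragment added to each) for 39821 of 39821 and 47715 of 47716 summits. Each of 12 differences was computed per chromosome (medians, shares or densities) and tested with a two-sided exact sign test, with ties left out and Benjamini-Hochberg adjustment, and called at an adjusted p under 0.05. The steps were tested on simulated data. Named are the 10 best members by the worse of 2 rank fractions of −log10 p, the 3 fullest and emptiest ends, the 3 largest ratios between ends in each direction, the members nearest either tip and the regions beside the limits. The ends that differed most from their own inward zones were picked after their values were seen. Members, zones and tests were chosen with earlier results of these data known. The 98.1% intervals and sign tests rest on 1 difference for each of 19 chromosomes. Depth (read here as 3.00 and 6.36 fragments on average) and the number of regions limit the precision of each chromosome's value. Alternatives covered overlap, q, zone widths, summit, chromosomes and single lists. The input libraries, scaffolds and chromosome 13 were left out, and no sequence or gene was assigned.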

Additional observations from a re-analysis of the deposited data

How the results depend on the processing

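Of 90 alternatives with a test for the 12 results, 80 neither reversed the direction nor changed the call, 9 reversed the direction and 1 ended a call. With all chromosomes pooled, 1 value per result with no test, 1 of 12 results reversed direction and the density difference between end and inward zones was 14.9 per Mb. Both background results had a median difference of 0 in the main setting. They had no direction to reverse, so their alternatives count as not reversed whatever their sign. The higher density of the end zones ended as a call with the next 5% as inward zone (median difference 0 per Mb). In the other alternatives that were tested it held, with median differences of 16.1 to 19.2 per Mb in single lists (each without the other replicate), 8.05 with −log10 q of 10 or more, 8.21 with an end zone of 2.5%, 8.50 with the outermost 2 Mb against 2 to 8 Mb, and 20.9 with an inward zone of 10 to 20%. These differences per Mb also depend on how many sites a setting keeps. With −log10 q of 10 or more, the end zones had 55.9 per Mb and the inward zones 45.9, against 77.6 and 63.1 in the main setting. Leaving out 1 chromosome at a time gave 13.6 to 14.1 per Mb. The reversals concern results with no call in any tested alternative (adjusted p of 0.381 or more). The difference between the first and the last 5% was -0.481 per Mb with −log10 q of 10 or more, -2.29 with an end zone of 2.5% and -1.16 to 1.53 in single lists. With −log10 q of 10 or more, the log2 difference in replicate 2 fold enrichment was 0.0115 and the difference in shared replicate 2 peaks 0.0885 percentage points, and the latter was 0.11 with overlap of 50% of the shorter peak. The log2 difference in replicate 1 peak width was -0.0244 with an end zone of 2.5%, -0.00413 with the outermost 2 Mb and -0.00404 with chromosomes pooled, and that in distance to the next summit was 0.0394 with an end zone of 2.5%. For these reversals the cause was not tested. The span counted from the first peak and the inward zone of 10 to 20% were chosen after seeing the data. No paired analysis was possible because inputs have no list of their own to pair with a ChIP list here. Replicate overlap needs both lists, so neither could be left out of it. Depth limits what an unshared peak shows, since the other replicate may have missed it.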
